A study of Homo sapiens with 4 samples.

Results

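The 10 genes described here are markers of trophoblast and amnion, the extraembryonic epithelia of the early embryo, and they were followed in CD31+ cells made from H1 hESCs, an established human embryonic stem cell line. They were chosen by name as TFAP2A, TFAP2B, TFAP2C, TEAD4, TP63, ELF5, KRT7, GABRP, VTCN1 and CGA, and each matched a single row of the 58229 genes kept from the deposited table. H1 cells were differentiated toward blood with activin A and BMP4 and then with VEGF and bFGF, and CD31+ cells were profiled by RNA sequencing at day 8. Cells without HAND1 overexpression (Control, 2 libraries) were compared with cells in which HAND1 was overexpressed (HAND1_OE, 2 libraries), and the scheme of the study shows induction with doxycycline in the later part of the culture. Whether the Control cells carried the construct, and whether either line was a clone, is not given in the sources used here. The methods state in general that experiments were repeated independently, but the labels do not say whether the 2 libraries of a group came from separate cultures, so p-values measure the spread between these libraries, which may be technical.

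Trophoblast forms the placenta. Its fate in the blastocyst is set by TEAD4 acting with YAP and by AP-2 and GATA factors. The stem-like cytotrophoblast is marked by TP63 and ELF5, the fused syncytiotrophoblast secretes chorionic gonadotropin, whose alpha subunit is encoded by CGA, and KRT7 is the keratin used to recognise trophoblast of all kinds. The amnion is a thin epithelium that arises beside the epiblast, and GABRP, VTCN1, TFAP2A and TFAP2B are among its markers in stem cell models. Cultures exposed to BMP4 can form either tissue. HAND1 itself is expressed in both, and it also acts in heart and mesoderm.

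Levels are given as FPKM, fragments scaled to transcript length and to the depth of the library, so they can be compared between genes. From the steps left in low values, the libraries were estimated to hold from 21500000 (Control replicate 2) to 26100000 fragments (HAND1_OE replicate 1), and 13989 to 14542 genes reached 1 FPKM in a library. PECAM1, which encodes CD31, was at 95.5 and 141 FPKM in Control and, with HAND1, at 92.0 and 160 FPKM, so the sorted marker was present in every library. HAND1 (ENSG00000113196.2) was at 12.1 and 14.3 FPKM in Control but at 520 and 517 FPKM where it was overexpressed. Blood genes fell with HAND1: 13 of the 14 blood markers tested were called lower, and the 16 markers of that list summed to 997 and 1369 FPKM in Control against 72.4 and 53.4 FPKM in HAND1_OE, with a median log2 fold change of -3.73. The largest falls of the list were those of GYPB (log2 fold change -4.93), HBE1 (-4.19) and HBG2 (-4.15). In such bulk samples fewer cells of a type and less RNA per cell cannot be told apart. The part of the fall of blood genes in the other values was not tested.

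Of the 10 genes, 2 were expressed in every library, 1 lay close to 1 FPKM and 7 stayed under 1 FPKM in all 4 libraries. TEAD4 was the highest at 24.7 to 31.5 FPKM, TFAP2A followed at 3.18 to 9.66 FPKM, and GABRP lay between 0.990 and 2.29 FPKM. The remaining genes did not exceed 0.507 FPKM, the value of KRT7 in Control replicate 2. KRT7, CGA, TP63 and ELF5, which are used to define trophoblast, were all among these low genes.

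**Figure D1:**
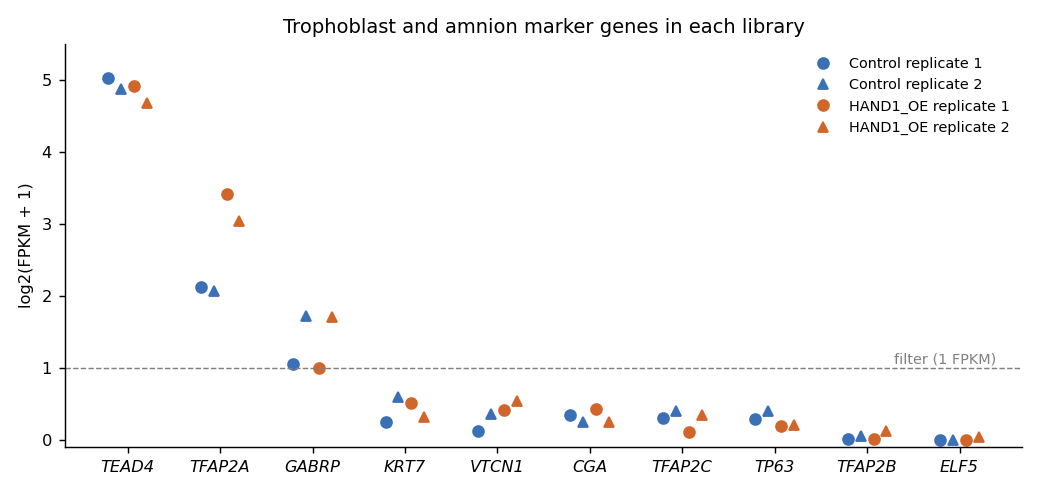
Level of each of the 10 genes in the 4 libraries, as log2(FPKM + 1), ordered by mean; circles are replicate 1 and triangles replicate 2, and the dashed line marks 1 FPKM, the minimum for a test. TEAD4 and TFAP2A lie above the line in every library, GABRP lies above it in 3 libraries and just under it in HAND1_OE replicate 1 (0.990 FPKM), and the other 7 genes lie below it in every library.

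To be tested, a gene had to reach 1 FPKM in at least 2 libraries. This left 14622 genes, among them TFAP2A, TEAD4 and GABRP, each of which reached the minimum in libraries of both groups. A gene was called when its limma adjusted p was under 0.05, which held for 2.04% of all genes tested in the direction of higher and for 2.11% in the direction of lower levels with HAND1. Of the 3 tested members 1 was called higher, TFAP2A, and 0 were called lower, and the counts were the same at an unadjusted p under 0.05.

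The AP-2 factors were examined first. They bind DNA as dimers, and TFAP2A and TFAP2C are early regulators of trophectoderm, amnion, surface ectoderm and neural crest. TFAP2A (ENSG00000137203.10, GRCh38 chromosome 6, 10393186 to 10419659, minus strand) was at 3.36 and 3.18 FPKM in Control and, with HAND1, at 9.66 and 7.25 FPKM. Its groups did not overlap, and HAND1_OE was above Control, an order that 16.2% of all genes tested showed. The Control mean was 3.27 ± 0.127 and the HAND1_OE mean 8.46 ± 1.70 FPKM (SD, n = 2). This is a rise of 1.13 on the log2 scale with a standard error of 0.197 (limma adjusted p = 0.0419). Log2 fold changes are differences of log2(FPKM + 1) throughout, which understates the change of low genes. The call lay close to the threshold, and TFAP2A ranked at position 520 of the genes tested by p. It was lost when all genes above 0 were tested (limma adjusted p = 0.205), where 0 genes passed, not even HAND1 (0.153). Leaving out the first Control library (0.118), the second (0.149) or the first HAND1_OE library (0.115) also took the call away, while the log2 fold change stayed between 0.95 and 1.32 with each library left out.

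TFAP2A has a pair of start sites among the RefSeq promoter windows used here (250 bases before the start to 50 after, GRCh38.p14). The first lies at 10419659, the end of the gene in the table, and the second at 10412391, inside it. They are shown because TFAP2A was the member that rose, and they are written on the minus strand of chromosome 6. Capitals mark each match, on either strand, to 6 motifs. For AP-2 factors GCCNNNGGC was searched. For TEAD factors it was GGAATG. For factors of the GATA family it was AGATAA. The E-box of bHLH factors such as HAND1 was searched as CANNTG and, in a narrower form contained in it, as CATCTG. The cyclic AMP response element (CRE) was searched as TGACGTCA. The first window (chr6:10419610-10419909) held a single match, an E-box, and the second (chr6:10412342-10412641) held no match.
TFAP2A window 1: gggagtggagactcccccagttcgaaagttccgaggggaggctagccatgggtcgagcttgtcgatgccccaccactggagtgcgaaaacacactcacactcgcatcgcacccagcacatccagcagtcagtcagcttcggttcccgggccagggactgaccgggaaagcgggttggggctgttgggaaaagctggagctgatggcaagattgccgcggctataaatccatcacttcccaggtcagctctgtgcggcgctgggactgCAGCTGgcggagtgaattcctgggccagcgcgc
TFAP2A window 2: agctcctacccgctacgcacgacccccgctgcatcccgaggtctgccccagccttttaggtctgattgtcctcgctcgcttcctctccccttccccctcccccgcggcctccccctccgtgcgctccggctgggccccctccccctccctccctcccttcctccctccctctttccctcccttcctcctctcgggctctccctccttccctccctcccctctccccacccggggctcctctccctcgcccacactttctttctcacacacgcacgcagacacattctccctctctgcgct

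CANNTG is common, with a match in 68.7% of the 35116 windows, against 23.2% for the AP-2 motif, 14.7% for CATCTG, 14.03% for the TEAD motif and 10.3% for the GATA motif. The gene-level values do not separate the transcripts that begin at the 2 start sites of TFAP2A. Its antisense neighbour TFAP2A-AS1, which overlaps it, was at 0.207 to 0.399 FPKM in all libraries. The library kit is not stated to keep strand, so reads of the overlap cannot be assigned between them.

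The other AP-2 genes were low. TFAP2C (ENSG00000087510.6, chromosome 20, 56629302 to 56639283), a factor of the trophectoderm and of primordial germ cells, was at 0.227 and 0.322 FPKM in Control and, with HAND1, at 0.0740 and 0.271 FPKM, with overlapping groups. TFAP2B (ENSG00000008196.12, chromosome 6, 50818723 to 50847613), an amnion and neural crest factor, was at 0.00821 and 0.0337 FPKM in Control and, with HAND1, at 0.00697 and 0.0878 FPKM. TFAP2D was listed at 0 in every library. TFAP2E was at 0.687 and 0.727 FPKM in Control and, with HAND1, at 0.280 and 0.275 FPKM, so its groups lay apart in the direction opposite to TFAP2A, but at levels too low to be tested. Among the genes that were tested, 30.1% showed that order. By these levels TFAP2A was the highest AP-2 gene in each library.

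**Figure D2:**
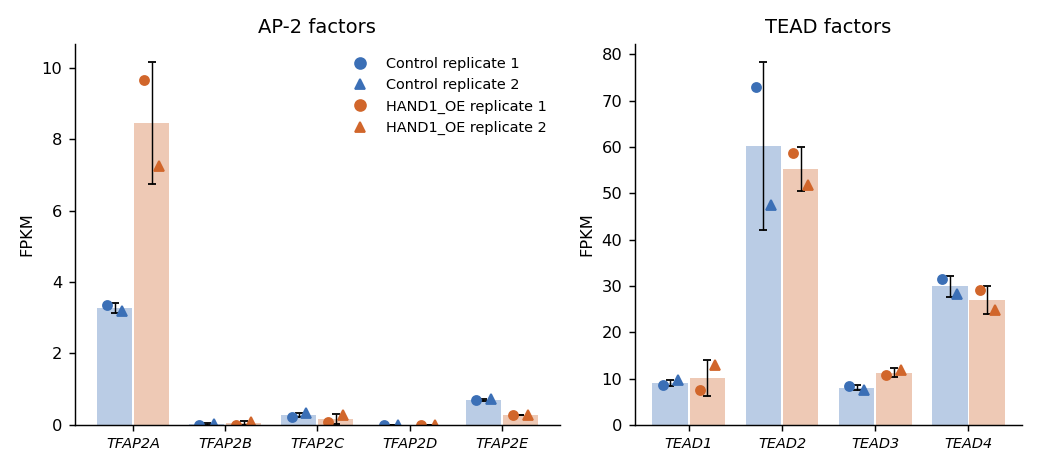
FPKM of the AP-2 genes (left) and the TEAD genes (right); bars are means of 2 libraries, error bars are SD, and points are single libraries. TFAP2A is the highest AP-2 gene and differs between the groups, while TEAD4 is at 24.7 to 31.5 FPKM in both groups and TEAD2 is the highest TEAD gene.

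Relatives and modulators of AP-2 factors, TFAP2D and TFAP2E among them, were compared as a list of 7 genes. Of the 4 tested, 1 was called lower and 0 higher, and the median log2 fold change was -0.45, against -0.078 over all genes tested. CITED2, a coactivator that bridges AP-2 to CBP and p300 and that also restrains HIF1, was at 92.5 and 126 FPKM in Control and, with HAND1, at 46.7 and 47.0 FPKM (log2 fold change -1.19, limma adjusted p = 0.0347). The call of CITED2 was lost without Control replicate 2 (0.114), HAND1_OE replicate 1 (0.0584) or HAND1_OE replicate 2 (0.0522). KCTD15, an inhibitor of AP-2, was at 43.1 and 34.9 FPKM in Control and, with HAND1, at 44.3 and 38.3 FPKM (log2 fold change 0.08, adjusted p = 0.876).

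TEAD4 is a DNA-binding factor at the end of the Hippo pathway, in which YAP and TAZ enter the nucleus and bind TEAD factors when the kinases LATS1 and LATS2 are inactive. TEAD4 (ENSG00000197905.8, chromosome 12, 2959330 to 3040673, plus strand) was at 31.5 and 28.3 FPKM in Control and, with HAND1, at 29.1 and 24.7 FPKM. The groups overlapped, and the mean was 29.9 ± 2.30 against 26.9 ± 3.07 FPKM (SD, n = 2). The log2 fold change of -0.15 (95% interval -0.55 to 0.25) did not pass (limma adjusted p = 0.734). The other TEAD genes did not pass either, and their log2 fold changes were 0.11 for TEAD1, -0.09 for TEAD2 and 0.45 for TEAD3. TEAD2 was the highest of the family at 47.5 to 73.0 FPKM, above TEAD4 in every library, whereas TEAD1 (7.47 to 13.0 FPKM) and TEAD3 (7.59 to 11.9 FPKM) overlapped.

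Of the 20 TEAD relatives and Hippo genes, 18 were tested, 1 was called higher and 0 lower, with a median log2 fold change of -0.05. The gene called was AMOTL1, an angiomotin family member that holds YAP in the cytoplasm, at 9.01 and 10.1 FPKM in Control and, with HAND1, at 19.1 and 22.0 FPKM (log2 fold change 1.03, limma adjusted p = 0.0338). It was called in 1 of 4 fits with a library left out, and lost without Control replicate 1 (0.139), Control replicate 2 (0.1045) or HAND1_OE replicate 2 (0.0838). WWTR1, which encodes TAZ, was at 52.0 and 62.8 FPKM in Control and, with HAND1, at 98.0 and 111 FPKM and fell short of the threshold (0.85, adjusted p = 0.0557). Among 14 tested targets of YAP and TEAD, 1 was called higher and 1 lower, with a median of 0.01. ARHGEF17, a guanine nucleotide exchange factor, had a mean of 58.4 ± 6.57 FPKM in Control and rose to 126 ± 17.7 FPKM in HAND1_OE (SD, n = 2, a log2 difference of 1.09, adjusted p = 0.0349). FJX1, a secreted relative of four-jointed, fell from 24.1 ± 3.40 FPKM in Control to 9.64 ± 0.0924 FPKM in HAND1_OE (-1.23, adjusted p = 0.0227). Both calls were lost without Control replicate 1 (0.0754 for ARHGEF17, 0.0528 for FJX1) and without Control replicate 2 (0.139 and 0.0995), and that of ARHGEF17 also without HAND1_OE replicate 1 (0.0839). The classical targets CCN1 and CCN2, which are listed in the table under their older symbols, had log2 fold changes of 0.23 and -0.30 and did not pass.

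GABRP encodes the pi subunit of the GABA-A receptor, a chloride channel, and is expressed in epithelia more than in neurons. GABRP (ENSG00000094755.16, chromosome 5, 170763350 to 170814047, plus strand) was at 1.08 and 2.29 FPKM in Control and, with HAND1, at 0.990 and 2.25 FPKM. The groups overlapped almost fully, and replicate 2 of each group was higher than replicate 1 of each. The log2 fold change was -0.04 with a 95% interval from -0.90 to 0.82 (limma adjusted p = 0.974), so a change of the size seen for TFAP2A lay outside that interval but smaller ones did not. Quantile normalization and median-ratio scaling turned its sign (0.08 and 0.02). In 7 of the 11 epithelial markers tested both replicate 2 libraries also lay above both replicate 1 libraries, a count made after the values were seen. The share of all genes tested with that order was not counted. Replicates with the same number deviated together across all 14622 genes tested (r = 0.38), so the order need not be particular to epithelial genes. EPCAM was at 9.33 and 16.8 FPKM in Control and, with HAND1, at 5.35 and 16.0 FPKM, and CDH1 was at 1.41 and 3.13 FPKM in Control and, with HAND1, at 1.01 and 4.29 FPKM. CLDN7, the most abundant of the list, went the other way, with 76.0 and 62.1 FPKM in Control and 45.2 and 36.4 FPKM in HAND1_OE. Over the whole epithelial list of 12 genes the sum was 118 and 122 FPKM in Control and 72.4 and 97.7 FPKM in HAND1_OE, 11 of the 12 reached 1 FPKM in a library, and 0 were listed at 0 throughout. Of its 11 tested genes 0 were called, with a median log2 fold change of -0.04. Their part in the values of GABRP was not tested.

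A different subunit of that receptor moved more than any of the 10 genes. GABRE, the epsilon subunit, was at 42.8 and 47.1 FPKM in Control and, with HAND1, at 7.29 and 5.001 FPKM, and both HAND1_OE libraries lay far below both Control libraries. The log2 fold change was -2.70 (standard error 0.202, limma adjusted p = 0.00700), and GABRE was called with each library left out. Of the 18 other subunits of the receptor only GABRE and GABRR2 could be tested, and GABRR2 (-0.21, adjusted p = 0.841) did not pass. The median of the 2 was -1.45. The alpha and beta subunits, at least some of which a GABA-A channel usually needs, were at 0.752 FPKM or less in every library.

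**Figure D3:**
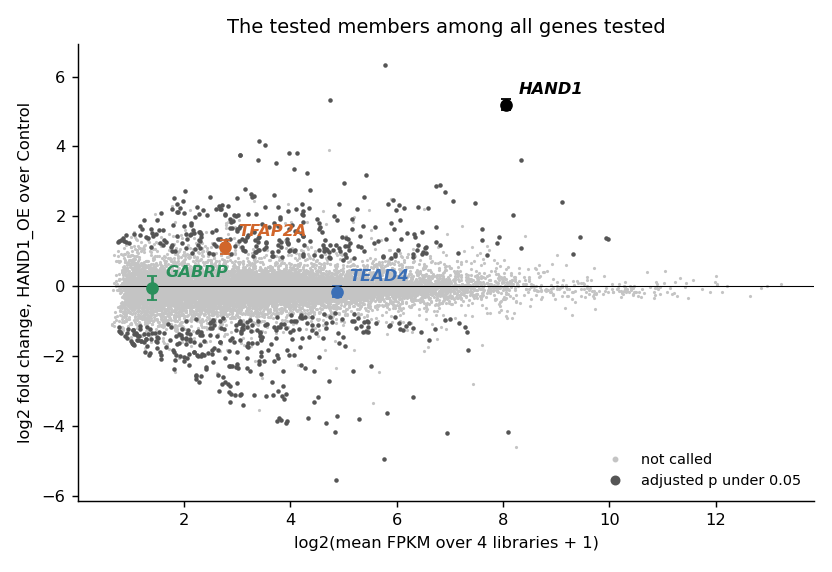
Log2 fold change (HAND1_OE over Control) against mean level on a log2 axis for the 14622 genes tested, with dark points for an adjusted p under 0.05 and error bars of 1 standard error on the named genes. TFAP2A lies at 1.13 among the called genes, whereas TEAD4 (-0.15) and GABRP (-0.04) lie within the grey band around 0.

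The 7 genes under 1 FPKM were not tested and are too low to judge. What a single fragment adds was estimated from single-exon genes, and the level of each gene was turned into fragments on its longest annotated transcript, which gives an upper estimate where shorter transcripts contribute. On that scale TFAP2A had at most 264 and 244 fragments in Control and 895 and 589 in HAND1_OE. By contrast, no gene of the 7 exceeded 32 fragments in a library.

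TP63 (ENSG00000073282.12, chromosome 3, 189631416 to 189897279), a p53 relative required by stratified epithelia and expressed in cytotrophoblast, was at 0.224 and 0.319 FPKM in Control and, with HAND1, at 0.139 and 0.147 FPKM, or at most 23, 32, 17 and 16 fragments. Both HAND1_OE libraries lay below both Control libraries, an order shown by 30.1% of all genes tested, a set that leaves out TP63 and other genes this low. VTCN1 (ENSG00000134258.16, chromosome 1, 117143587 to 117210960), which encodes the immune checkpoint ligand B7-H4, was at 0.0901 and 0.276 FPKM in Control and, with HAND1, at 0.328 and 0.450 FPKM. This corresponds to at most 5 and 15 fragments in Control and to 21 and 25 in HAND1_OE. Both HAND1_OE libraries of VTCN1 lay above both Control libraries, an order shown by 16.2% of all genes tested, a set that leaves out VTCN1 too. When all genes above 0 were tested, neither TP63 (limma adjusted p = 0.450) nor VTCN1 (0.553) passed, in a fit in which 0 genes passed in all (before adjustment 1458 were higher and 2352 lower with a p under 0.05). The order of the groups was thus opposite in TP63 and VTCN1, and each rested on at most 32 fragments a library.

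KRT7 (ENSG00000135480.15, chromosome 12, 52232520 to 52252186), the keratin of simple epithelia that marks trophoblast, was at 0.184 and 0.507 FPKM in Control and, with HAND1, at 0.426 and 0.248 FPKM. The groups overlapped, with at most 6 to 16 fragments in a library. CGA (ENSG00000135346.8, chromosome 6, 87085498 to 87095406), the alpha subunit shared by chorionic gonadotropin and the pituitary glycoprotein hormones, was at 0.270 and 0.190 FPKM in Control and, with HAND1, at 0.341 and 0.182 FPKM, or at most 3 to 7 fragments. ELF5 (ENSG00000135374.9, chromosome 11, 34478793 to 34513805), an ETS factor of trophoblast stem cells, was listed at 0 in 3 libraries and at 0.0226 FPKM in HAND1_OE replicate 2, about 1 fragment. A value of 0 allowed up to 3 fragments, which for ELF5 would be 0.0529 to 0.0640 FPKM, and this limit covers counting error only. TFAP2B had 1 and 4 fragments in Control and 1 and 11 in HAND1_OE, and TFAP2C had 13 and 18 in Control and 5 and 16 in HAND1_OE.

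**Figure D4:**
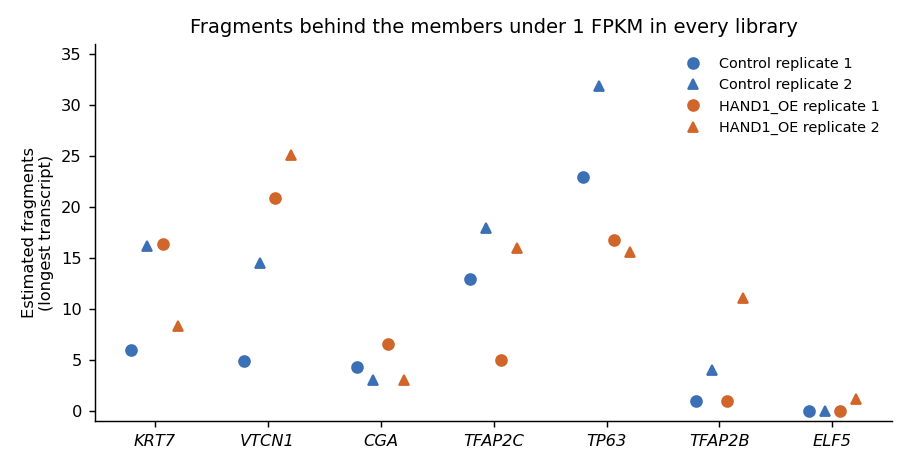
Estimated fragments, on the longest annotated transcript, behind the 7 genes that stayed under 1 FPKM in every library; circles are replicate 1 and triangles replicate 2. The highest point is TP63 in Control replicate 2 at 32 fragments, and ELF5 has at most 1 fragment in any library.

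The promoter of CGA is shown as that of a hormone gene of the placenta that was near 0 here. Its RefSeq window (GRCh38.p14, chr6:87095057-87095356, minus strand) held 2 copies of the CRE, a motif present in 1.85% of all windows, a GATA motif and 3 E-boxes. The CRE was added to the search after the window had been read, since the tandem element is the well known cyclic AMP switch of this gene.
CGA window: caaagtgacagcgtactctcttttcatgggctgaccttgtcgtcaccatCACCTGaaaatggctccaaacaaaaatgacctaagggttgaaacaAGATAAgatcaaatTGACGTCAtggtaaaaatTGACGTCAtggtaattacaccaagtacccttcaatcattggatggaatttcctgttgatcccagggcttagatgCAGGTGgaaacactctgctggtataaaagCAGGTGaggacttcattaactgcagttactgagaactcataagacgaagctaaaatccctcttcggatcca

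In total 7 of the 10 genes had a window, in 8 windows. CATCTG was found in those of TFAP2B and GABRP, the AP-2 motif in that of VTCN1, and the TEAD motif in 0 of them. These matches are letters in a window and were not tied to any measured binding.

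The genes were then set beside other genes of the same programmes, 199 in 13 lists, of which 93 were tested, 4 were called higher and 5 lower. Over all genes tested, 2.04% were called higher and 2.11% lower. When all genes above 0 were tested, 0 of the list genes were called, in a fit in which 0 genes passed in all. In the trophectoderm and cytotrophoblast list 12 of 25 genes were tested, 0 were called higher and 1 lower, with a median log2 fold change of 0.18. Among those tested, 8 had positive and 4 negative log2 fold changes. The largest rise was that of TBX3, at 13.1 and 19.8 FPKM in Control and, with HAND1, at 33.7 and 29.9 FPKM. It did not pass (log2 fold change 0.94, limma adjusted p = 0.0940). The gene called was BCAM, a laminin receptor and the Lutheran blood group antigen, at 85.0 and 73.0 FPKM in Control and, with HAND1, at 34.9 and 36.05 FPKM (log2 fold change -1.13, limma adjusted p = 0.0220). This call was lost without Control replicate 1 (0.0969) or Control replicate 2 (0.0624). Levels of GATA2 (74.5 to 118 FPKM) and GATA3 (26.1 to 30.6 FPKM), which were named after their values were seen, were well above those of TFAP2C, and neither passed (log2 fold changes -0.49 and 0.02). CDX2, a trophectoderm factor, was at 0.280 and 1.21 FPKM in Control and, with HAND1, at 2.12 and 0.788 FPKM, with overlapping groups (log2 fold change 0.49, adjusted p = 0.624). GATA2, GATA3 and BCAM are also expressed by endothelial or blood cells. The blood markers fell as given above, and their part in the values of GATA2, GATA3 and BCAM was not tested.

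Of 34 syncytiotrophoblast genes 5 were tested and 0 were called, and 18 were listed at 0 in every library. Those at 0 included CGB3, CGB5 and CGB8, which encode the beta subunit that pairs with the product of CGA, the placental lactogens CSH1 and CSH2, and all the pregnancy-specific glycoprotein genes of the list. These genes have near-identical copies among which reads may be lost, so a 0 does not show silence. SLC25A6, a carrier that most cells use, was also listed at 0 in every library. That gene is pseudoautosomal, and Y copies of such genes were left out here, so its 0 is a special case. A further beta-subunit gene of the list, CGB7, was at 0.864 and 0.856 FPKM in Control and 0.416 and 0.341 FPKM in HAND1_OE, too low to test. GCM1, the regulator of syncytial fusion, was at 0.291 and 0.279 FPKM in Control and, with HAND1, at 0.0154 and 0.123 FPKM. GDF15, the highest gene of the list, was at 51.6 and 83.5 FPKM in Control and, with HAND1, at 45.8 and 59.7 FPKM (log2 fold change -0.32, limma adjusted p = 0.638). The median of the 5 tested genes was 0.40.

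Among extravillous trophoblast genes 12 of 18 were tested, 1 was called higher and 0 lower, with a median of 0.12. Of those tested, 7 had positive and 5 negative log2 fold changes. ITGA1, a collagen receptor that smooth muscle and stroma also use, had a mean of 4.67 ± 0.424 FPKM in Control and rose to 17.6 ± 3.64 FPKM in HAND1_OE (SD, n = 2, a log2 difference of 1.70, limma adjusted p = 0.0159). HLA-G, which defines these cells, was at 0.158 FPKM or less in every library. ASCL2 was at 1.15 and 1.18 FPKM in Control and, with HAND1, at 0.0730 and 0.0558 FPKM. It met the minimum for a test only through Control and did not pass (-1.02, limma adjusted p = 0.0707). In the amnion list 13 of 18 genes were tested, 1 was called higher and 1 lower, with a median of -0.19. POSTN, a matricellular protein of stroma, rose from 0.874 ± 0.0685 FPKM in Control to 6.36 ± 0.489 FPKM in HAND1_OE (1.97, limma adjusted p = 0.00900). It met the minimum for a test only through HAND1_OE, being at 0.825 and 0.922 FPKM in Control. Without that rise it would not have been tested. LMO2, a cofactor of blood and endothelial transcription factors, fell from 146 ± 21.3 FPKM in Control to 61.9 ± 5.77 FPKM in HAND1_OE (-1.22, adjusted p = 0.0258), in the direction of the blood markers, and lost its call without Control replicate 2 (0.0973) or HAND1_OE replicate 2 (0.0533). With each library left out, the log2 fold change of ITGA1 stayed between 1.5 and 1.90 and that of POSTN between 1.90 and 2.04. ISL1, a transcription factor of amnion and of cardiac progenitors, was at 3.53 and 2.91 FPKM in Control and, with HAND1, at 2.55 and 1.89 FPKM and did not pass (-0.39, adjusted p = 0.429).

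Stromal markers were compared beside ITGA1 and POSTN. All 12 reached 1 FPKM in a library, and their sum was 920 and 828 FPKM in Control and 1213 and 1224 FPKM in HAND1_OE. Of the 10 tested, 2 were called higher and 0 lower, 6 had positive and 4 negative log2 fold changes, and the median was 0.38. Those called were PDGFRB (2.03) and LUM (1.41), the latter not without Control replicate 1 (limma adjusted p = 0.0739). COL1A2 (-0.82), TAGLN (-0.42), COL1A1 (-0.23) and TWIST1 (-0.06) had negative values and did not pass. The part of these markers in the values of ITGA1 and POSTN was not tested.

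Keratins other than KRT7 were not all low. KRT8 was at 96.0 to 130 FPKM, its partner KRT18 at 76.3 to 105 FPKM and KRT19 at 28.9 to 79.1 FPKM, so KRT7 was far below the simple keratins with which it is usually found. All 3 had positive log2 fold changes (0.29, 0.30 and 0.60, median 0.30) and 0 passed, while KRT20, KRT23 and KRT80 stayed too low to test. In the list of p63 relatives and basal epithelium 5 of 18 genes were tested and 0 were called, with a median of -0.23. The basal keratin KRT14 was listed at 0 throughout, and KRT5 was at 0 in Control but at 0.290 and 0.368 FPKM with HAND1. JAG2, a Notch ligand, was the highest of the list at 52.4 to 69.0 FPKM (-0.23, limma adjusted p = 0.546). Of the 6 ETS relatives of ELF5, 3 were tested and 0 were called, with a median of -0.18. ELF1 was the highest at 22.1 to 32.4 FPKM, and EHF, which like ELF5 is an epithelial factor, was at 0.0195 FPKM or less.

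The relatives of VTCN1 and CGA completed the lists. In the B7 family 2 of 9 genes were tested and 0 were called, with a median of -0.17. CD276 was the highest, at 105 and 89.1 FPKM in Control and, with HAND1, at 142 and 105 FPKM (log2 fold change 0.33, limma adjusted p = 0.501). None of the 5 other glycoprotein hormone subunits could be tested, 4 were listed at 0 in every library, and GPHA2 did not exceed 0.507 FPKM.

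**Figure D5:**
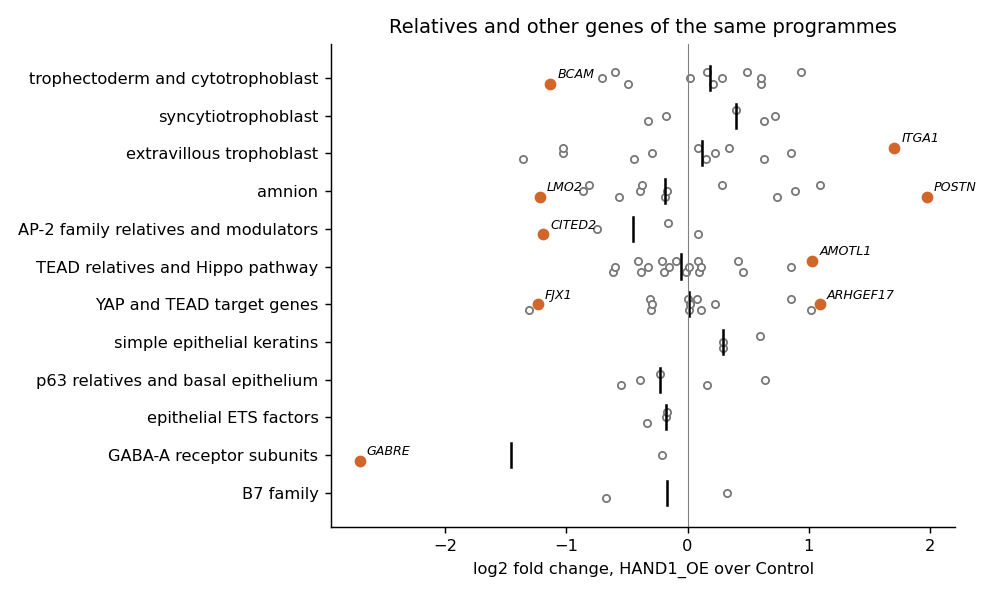
Log2 fold change (HAND1_OE over Control) of each tested gene in the 12 lists with a tested gene; filled points have an adjusted p under 0.05 and are named, open points do not, and vertical bars are medians. Most genes lie between -1 and 1, and GABRE at -2.70 and POSTN at 1.97 lie farthest out.

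Markers of further cell types were compared as the samples could hold them. The 16 endothelial markers each reached 1 FPKM in a library, summed to 2230 to 2688 FPKM over the 4 libraries, and included 1 called higher (VWF, 2.18) and 2 called lower (CLDN5, -2.27, and SOX18, -1.31), with a median of 0.05. SOX18 lost its call without Control replicate 1 (limma adjusted p = 0.0548). Of the neural crest markers, cells in which TFAP2A and TFAP2B also act, 5 of 11 reached 1 FPKM in a library, 0 of the 5 tested were called (median -0.23), and the sums were 111 and 118 FPKM in Control and 94.4 and 125 FPKM in HAND1_OE. SOX10, a defining factor, was at 0.188 FPKM or less. Pluripotent markers summed to 75.3 and 90.7 FPKM in Control and to 54.7 and 71.7 FPKM in HAND1_OE with 0 of 5 called (median -0.18). Most of this was LIN28A (19.0 to 44.3 FPKM) and DPPA4 (30.0 to 37.8 FPKM), while NANOG did not exceed 0.379 FPKM and SOX2 0.0622 FPKM. Cardiac markers summed to 116 and 106 FPKM in Control and to 32.4 and 33.0 FPKM in HAND1_OE, with MYL4 called lower (-3.80) among 5 tested (median -0.14). Without MYL4 the sums were 47.5 and 30.3 FPKM in Control and 27.7 and 29.2 FPKM in HAND1_OE. TNNT2, the cardiac troponin T gene, had a positive log2 fold change (1.20) that did not pass (adjusted p = 0.0914).

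Genes with a profile like that of TFAP2A were sought among the genes tested. Over the 4 libraries, by Euclidean distance between log2(FPKM + 1) values centred on each gene, the nearest genes were AL355987.4 (distance 0.047), the retrotransposon-derived imprinted gene RTL1 (0.059) and the lipid transfer gene STARD10 (0.094), and 50 genes lay within 0.25. These genes were picked for values like those of TFAP2A in the same 4 libraries, so their rise was set by that choice. RTL1, which is expressed in placenta, was at 0.208 and 0.107 FPKM in Control and, with HAND1, at 1.80 and 1.19 FPKM. Its log2 fold change was 1.10 (limma adjusted p = 0.0754), and it met the minimum for a test only through HAND1_OE. STARD10 was at 55.3 and 51.2 FPKM in Control and, with HAND1, at 129 and 96.4 FPKM (1.05, adjusted p = 0.0444).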

How the data were processed

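RNA was prepared with Trizol, and libraries were made from total RNA of 4 samples with an Illumina TruSeq kit. The table the authors deposited holds FPKM values, in which fragments of a gene are divided by transcript length and by library depth. It names no unit, and FPKM was inferred because the study plots it for these cells and because low values step by single fragments. The submitters' processing notes name BWA, Bowtie and RSEM without versions and the build hg19, whereas 55583 of 58229 genes have the version and coordinates of GENCODE release 29 on GRCh38. Coordinates are therefore given on GRCh38, with starts counted from 1.

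Of 58365 rows, 45 Y copies of pseudoautosomal genes and 91 second rows of a gene ID were left out. HAND1_OE was compared with Control with R 4.3.3 and limma 3.58.1 on log2(FPKM + 1), for genes at 1 FPKM in at least 2 libraries, with the prior variance following the mean level. P-values are two-sided and adjusted by Benjamini-Hochberg over all genes tested. With 2 libraries a group, an exact permutation test cannot go below p = 0.333. The code was tested on simulated data.

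Depth was estimated from 5516 single-exon genes with a single transcript of 800 to 6000 nt, as the commonest product of FPKM and length less 274 to 294 nt, an offset fitted for each library. Between 95.8% and 97.5% of those with few fragments then came out within 0.1 of a whole number.

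The members and lists were chosen with earlier results of these data known, and the depth estimate was added after the table had been read. Text names the 10 members, HAND1, up to 3 called genes per list with the largest changes or else the highest gene, and the 3 profiles nearest to a called member. Other names were picked after their values were seen. The alternatives were another pseudocount, filter, scaling or threshold, no trend, a replicate block and each library left out.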

Additional observations from a re-analysis of the deposited data

How the results depend on the processing

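When 29860 genes above 0 were tested, HAND1 had a log2 fold change of 5.20 and a limma adjusted p of 0.153, 0 genes were called higher and 0 lower (1458 and 2352 at an unadjusted p under 0.05), and 0 members were called (1 at an unadjusted p). HAND1 passed in the other settings. With a library left out its log2 fold change ranged from 5.08 to 5.31, 134 to 266 genes were called higher (134 without Control replicate 2 and 141 without Control replicate 1) and 137 to 309 lower (137 and 144), and 0 to 1 members were called higher. TFAP2A was called without HAND1_OE replicate 2 (adjusted p = 0.0340) and in the remaining settings on pseudocount, filter, scaling and trend. GABRP turned in sign with quantile normalization (0.079) and median-ratio scaling (0.023), and ranged from -0.39 to 0.31 with a library left out (positive when Control replicate 2 or HAND1_OE replicate 1 was), and TEAD4 kept its sign without passing. With 1 FPKM required in every library GABRP could not be tested. Replicates with the same number deviated together across 14622 genes (r = 0.38), but with only 2 pairs and no label for pairing they share only a number. With the replicate block 597 genes were called higher and 712 lower, TFAP2A was called (0.0285), and TEAD4 (0.319) and GABRP (0.886) were not. Depth limits the 7 genes under 1 FPKM, each of which rested on at most 32 fragments a library.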
